A study of Mus musculus with 19 samples.

Results

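Gene expression was compared between mammary luminal cells (LCs) of C451A-ERα (C451A) mice and of wild-type (WT) mice that had received estradiol (E2) alone. The comparison takes every array of the series whose label names E2 as the only hormone. These are 9 of 19 arrays, 5 from C451A-ERα mice and 4 from wild-type mice, with 1 array for each mouse, and 20666 genes could be compared. All 9 were females of the C57Bl/6N background, 8 weeks old, whose ovaries had been removed at 24 days of age according to the labels (the methods of the study give a slightly later age). A pellet placed 10 days after the operation released E2 (0.01 mg over 60 days) for 21 days, and no progesterone was given. LCs were sorted as CD24+CD29lo cells after CD31- and CD45-positive cells had been gated out. The C451A allele is a germline knock-in, so that every cell of a C451A-ERα mouse carries it and not the LCs alone. The design text plans 5 mice for each condition, and 4 wild-type E2 mice are analysed here. Array signals were not used to check the mutated base, so the genotype rests on the label of each mouse.

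ERα is a nuclear receptor that binds estrogen and regulates genes in the nucleus. A small share of it carries a palmitate, a lipid joined to a cysteine, which holds the receptor at the plasma membrane, where it can start kinase signaling. Replacing this cysteine by alanine (C451A) removes the lipid anchor and leaves the nuclear receptor. In the mammary epithelium, hormone-sensing LCs carry ERα and answer E2 with secreted factors that act on their ERα-negative luminal and basal neighbors. A sorted LC sample holds both hormone-sensing cells and ERα-negative cells, so that in such a bulk sample fewer cells of a type and less RNA per cell cannot be told apart.

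Signals are given as log2 of the median signal of a probe, normalized by quantiles over the 19 arrays, with 1 probe for each gene. A difference is the mean of the C451A-ERα mice minus that of the wild-type mice on this scale (log2 fold change), tested with limma and adjusted over all 20666 genes. Calls needed a change of more than 1.5-fold together with an adjusted p below 0.05. The genotypes are said not to overlap where the highest value of one lies below the lowest of the other. For the named genes of this kind the two-sided exact permutation p of the difference in means ran from 0.00794, the smallest that 4 against 5 mice allow, to 0.0476. These genes were picked because the genotypes did not overlap, which makes this p small by construction. It therefore adds no evidence beyond the separation itself. Values of single mice are listed in the order L67, L50, L72 and L52 for wild-type mice and L4, L58, L27, L76 and L51 for C451A-ERα mice, the numbers of the labels.

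The arrays were alike in brightness, with a 75th percentile of the signal between 248.5 and 490 at a background of 21 to 29, and no spot was saturated. The number of arrays limits the precision. All 11 pan-luminal markers tested, among them Krt8, Krt18, Krt19 and Epcam, were well above background on at least 1 array of each genotype. Markers of cells that the gate should remove were detected as well, including all 14 tested markers of basal cells and 12 of 13 of immune cells in wild-type samples. A gene was tested only where 4 or more arrays of the series had its probe well above background. High shares of detected markers, the pan-luminal ones included, are therefore set by this filter and do not measure how many such cells were present. Of 16 immune markers listed, 13 were tested. Wild-type mouse L72 stood apart from the other wild-type mice for many genes, and C451A-ERα mice L4 and L27 had the lowest array weights of the 9 in limma (0.24 and 0.282, against 0.601 for L72 and 1.42 to 3.46 for the others). The arrays lay on 5 slides. Each of 4 slides carried 1 mouse of either genotype (L4 and L67, L58 and L50, L76 and L72, L51 and L52), while L27 had no wild-type E2 partner on its slide.

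Few genes passed the test, and many more were separated between the genotypes. In C451A-ERα LCs 4 genes fell and 2 rose, which is 0.0194% and 0.00968% of the genes tested. The genotypes did not overlap for 293 genes that were lower (1.42%) and 432 that were higher (2.09%) in C451A-ERα LCs, and these shares are the background for every count below. Differences among the lower genes were the larger ones. Among genes without overlap, 141 lower and 90 higher ones were past 1.5-fold, 51 and 8 were past 2-fold, and 6 and 0 were past 4-fold. Over all genes the median log2 fold change was 0.027, with 9518 genes (46.1%) below 0. At an unadjusted p under 0.05 there were 1358 lower and 1452 higher genes. The count of calls rested on single mice. It was 1044 (641 lower and 403 higher) without L72 and 0 without L67, L76 or L52 (limma, with 1755, 2497 and 1885 genes at an unadjusted p under 0.05). The authors' own value table, fitted in the same way, gave 87 lower (0.442%) and 46 higher genes (0.234%) out of 19667, and these include the 6 named next.

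**Figure D1:**
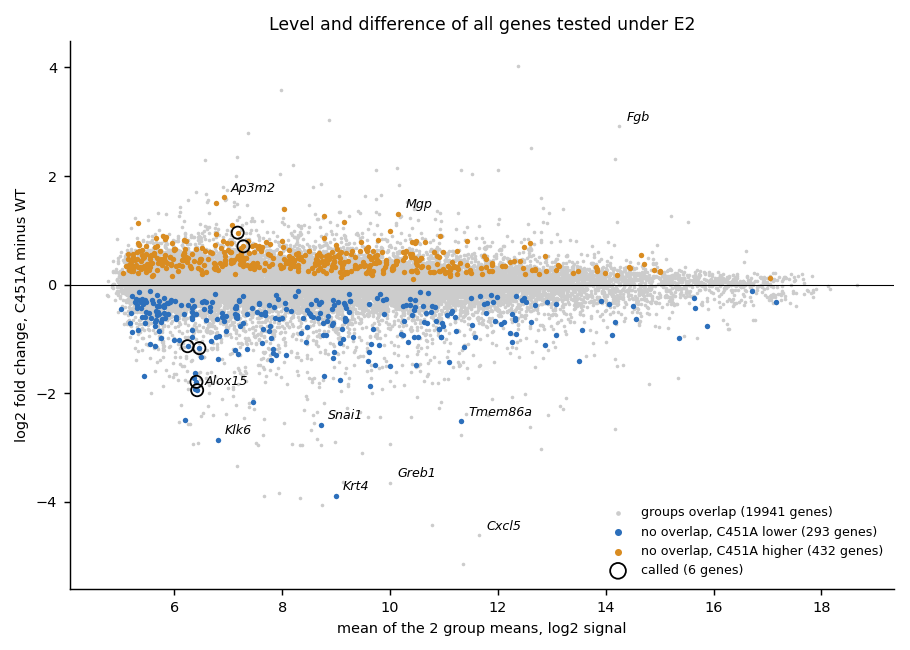
Each point is 1 of the 20666 genes, with the mean of both group means on the x axis (log2 signal) and the log2 fold change (C451A minus WT) on the y axis; blue and orange points are the 293 lower and 432 higher genes whose genotypes did not overlap, and circles mark the 6 called genes. The blue points reach −3.89 (Krt4), while the orange points stay below 2.

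Alox15 encodes a lipoxygenase that adds oxygen to polyunsaturated fatty acids. Its log2 signal (probe at chr11:70159115-70159339 of mm9) was 7.66, 7.13, 7.46 and 7.33 in the wild-type mice and 5.86, 4.93, 5.66, 5.32 and 5.48 in the C451A-ERα mice. All wild-type mice, L72 included, lay above all C451A-ERα mice, and Alox15 fell by 1.95 ± 0.26 SE on the log2 scale (adjusted p = 0.0116 from limma). It was well above background on 4 of 4 wild-type and 3 of 5 C451A-ERα arrays. Acod1, the enzyme that makes itaconate from a citric acid cycle intermediate, was at 6.58, 6.97, 6.54 and 7.15 in wild-type and 6.12, 5.41, 5.55, 5.75 and 5.55 in C451A-ERα LCs. Nccrp1, an F-box-associated protein of stratified epithelia, was at 7.68, 6.51, 7.06 and 6.94 in WT and 6.12, 5.81, 5.82, 5.88 and 5.76 in C451A. Both fell without overlap, Acod1 by 1.14 and Nccrp1 by 1.17 on the log2 scale (adjusted p = 0.0466 for either, limma). The transcript read by probe A_66_P101661 fell by 1.79, from 7.57, 7.98, 6.15 and 7.53 to 5.78, 5.25, 5.53, 5.62 and 5.39 (adjusted p = 0.0466, limma), and has no gene name in the tables used here. Its probe (chr7:29262350-29262409 of mm9) lies 66229 bases from that of Nccrp1 (chr7:29328639-29328698), so that the pair of neighbors fell together. The genes that rose encode zinc-finger proteins. Zfp202 was at 6.56, 6.51, 7.01 and 6.70 in wild-type and 8.07, 7.66, 7.73, 7.32 and 7.48 in C451A-ERα LCs, a rise of 0.96 ± 0.16 SE, and Zfp182 was at 6.88, 7.15, 6.95 and 6.73 in WT and 7.68, 7.85, 7.65, 7.53 and 7.47 in C451A, a rise of 0.70 ± 0.12 SE (adjusted p = 0.0466 for either, limma). Of the other Zfp182 probes (2) only 1 had the same direction. The Alox15 call was lost without L67 (adjusted p = 0.106), L76 (0.0573) or L52 (0.0636), and each of the other 5 was lost without any 1 of L67, L58, L27, L76, L51 or L52 (adjusted p from 0.065 to 0.374, limma). All 6 were called without L72. The sizes moved with the handling of background. With processed signals the log2 fold change was −3.22 for Alox15, −1.92 for Acod1, −1.75 for Nccrp1 and −2.66 for A_66_P101661 (adjusted p = 0.0627, 0.119, 0.0627 and 0.0627, limma), and with normexp correction it was −1.36, −0.78, −0.86 and −1.24 (0.00574, 0.0536, 0.0536 and 0.0678). Zfp182 and Zfp202 were at 0.71 and 1.14 with processed signals and at 0.54 and 0.79 with normexp correction. With the mean of its probes Zfp182 was at 0.38 (adjusted p = 0.137, limma).

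Beyond the called genes the largest differences without overlap lay on the lower side, and none of them passed the test with the normalization used here. With the authors' values and all mice, Klk6, Snai1, Tmem86a and Sprr1b passed both thresholds (adjusted p = 0.0452, 0.0404, 0.0442 and 0.0404, limma). In that fit 32 of the 126 named genes not called here passed. Many of these were named because they passed there, so this share is partly built in. Klk6, a secreted serine protease of the kallikrein family, was at 8.74, 8.73, 6.36 and 9.10 in wild-type and 5.26, 5.17, 4.75, 5.74 and 5.97 in C451A-ERα LCs (log2 fold change −2.85 ± 0.58 SE and adjusted p = 0.106 from limma). L72 was the only wild-type mouse near the C451A-ERα range. Snai1, a zinc-finger repressor of epithelial genes, was at 10.09, 9.69, 9.83 and 10.43 in WT and 7.93, 7.21, 6.79, 7.97 and 7.23 in C451A, and here L72 lay among the other wild-type mice (log2 fold change −2.58 ± 0.48 SE and adjusted p = 0.0949 from limma). Tmem86a, a lysoplasmalogenase of membrane lipid turnover, was at 12.62, 12.91, 11.56 and 13.19 in wild-type mice and 11.51, 9.01, 9.66, 10.12 and 10.00 in C451A-ERα mice. Only L72 and L4 came close to each other (log2 fold change −2.51, adjusted p = 0.096, limma). Sprr1b, a precursor of the cornified envelope, was well above background on all 4 wild-type arrays and on none of the 5 C451A-ERα arrays, so that it was at least 5.35-fold lower in the latter (group means 7.44 ± 1.57 and 4.94 ± 0.25, adjusted p = 0.096, limma).

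Mex3b, Ddit4l and Slco3a1 stood at the lower end as well. Mex3b, an RNA-binding protein, was at 8.78, 9.66, 6.80 and 8.91 in wild-type and 6.78, 6.13, 6.11, 6.38 and 6.46 in C451A-ERα LCs (log2 fold change −2.16, adjusted p = 0.0822, limma). Ddit4l, an inhibitor of mTOR signaling, was at 10.27, 10.01, 9.21 and 10.35 in WT and 8.73, 7.15, 8.01, 8.92 and 8.18 in C451A (log2 fold change −1.76, adjusted p = 0.113). The organic anion transporter Slco3a1 was at 11.30, 11.16, 9.71 and 10.82 in WT and 9.66, 9.27, 9.07, 9.15 and 9.07 in C451A (log2 fold change −1.50), and its 3 other probes were lower as well. In each of them L72 was the lowest wild-type mouse, and for Mex3b and Slco3a1 it lay just above the highest C451A-ERα mouse. LOC433198, a predicted gene not well above background on any C451A-ERα array, was at least 2.56-fold lower (group means 6.27 ± 0.75 and 4.59 ± 0.16, adjusted p = 0.096, limma).

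Higher genes showed smaller differences. Mgp, a calcium-binding matrix protein that inhibits calcification, was at 9.66, 9.36, 9.76 and 9.21 in wild-type and 9.95, 10.99, 10.37, 11.63 and 11.11 in C451A-ERα LCs (log2 fold change 1.31 ± 0.30 SE and adjusted p = 0.113 from limma). Trib2, a pseudokinase that directs proteins to degradation, was at 7.93, 8.01, 8.46 and 8.19 in WT and 8.77, 9.11, 9.47, 9.68 and 10.01 in C451A (log2 fold change 1.26 ± 0.27 SE and adjusted p = 0.113). The wild-type mice were close together for both genes and the C451A-ERα mice spread above them. Ccdc88c, a binding partner of Dishevelled in Wnt signaling, was at 10.01 ± 0.36 and 10.79 ± 0.16 (mean ± SD, n = 4 and 5), and all 4 of its other probes were higher too. Nphp4, a protein of the primary cilium, was at 7.22 ± 0.23 and 7.93 ± 0.22, and the F-box protein gene Fbxo10 at 7.6 ± 0.34 and 8.40 ± 0.20. Without L72, 59 of the 126 named genes that were not called passed both thresholds, among them Klk6 (adjusted p = 0.000953), Snai1 (0.00838), Tmem86a (0.00302), Sprr1b (8.33e-05), Mex3b (3.57e-05), Ddit4l (0.00891), Slco3a1 (0.00568), Mgp (0.0194), Trib2 (0.0124), Ccdc88c (0.00158), Nphp4 (0.0195) and Fbxo10 (0.00635). Over all 20666 genes, 1044 were called without L72, and no gene was called without L67, L76 or L52. Many named genes were chosen for separation or for large differences, so a higher share among them is built in. L72 was also the wild-type mouse nearest to the C451A-ERα range for most genes without overlap. For such genes leaving out L72 favors a call by construction. The p-values without L72, here and below, therefore describe the weight of this mouse and add no support. Over all alternatives the adjusted p (limma) of the 59 genes ran from 3.57e-05 to 0.659. With array weights it was lowest in 57 of them.

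**Figure D2:**
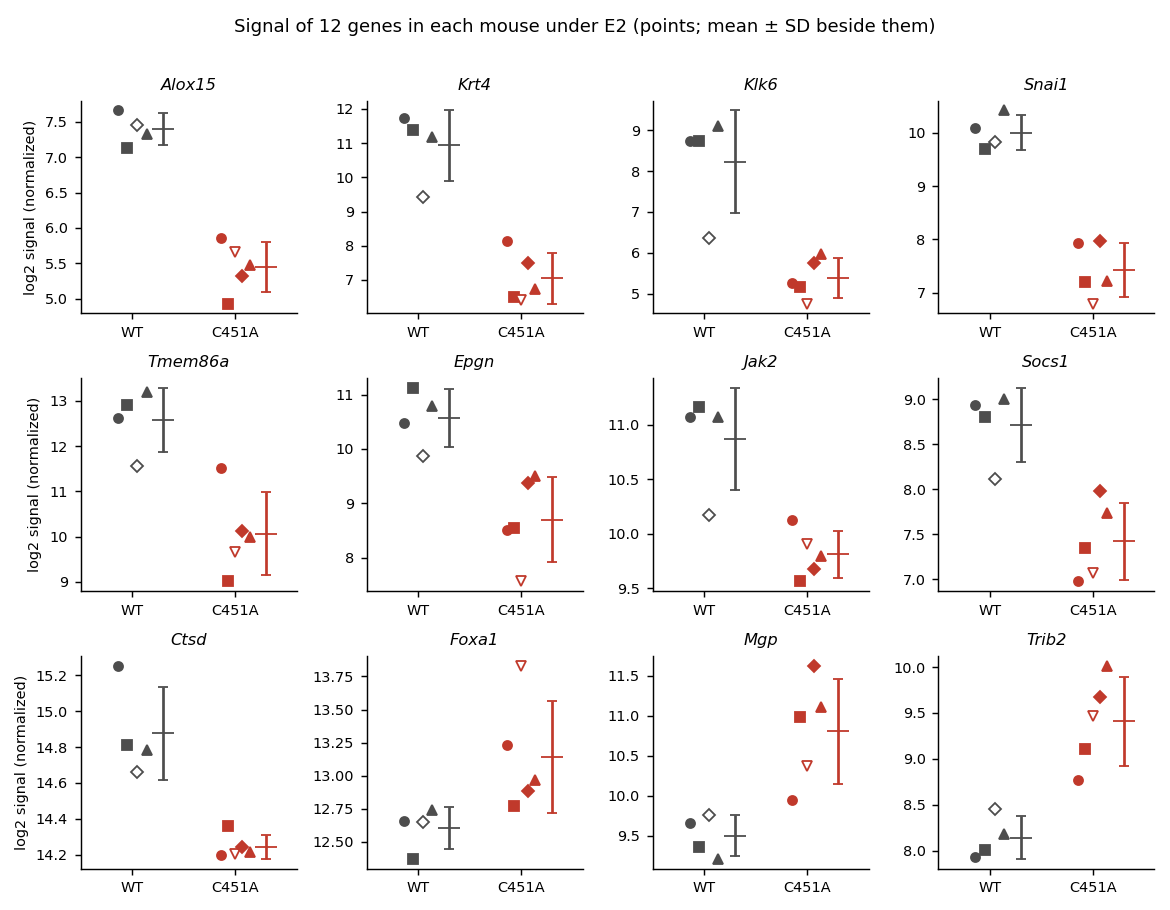
Log2 signal (y axis, each panel with its own range) of 12 genes in each of the 4 WT (gray) and 5 C451A (red) mice, with mean ± SD beside the points; the same symbol marks mice of 1 slide (L67 and L4 circles, L50 and L58 squares, L72 and L76 diamonds, L52 and L51 triangles), L27 is the inverted triangle, and open symbols are L72 and L27. No value of 1 genotype reaches the other in any panel, and L72 is the lowest WT point for Krt4, Klk6, Tmem86a, Epgn, Jak2, Socs1 and Ctsd.

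Genes of the interferon response had lower means in C451A-ERα LCs, as a list and not gene by gene. Interferons act through JAK kinases and STAT transcription factors, which bind interferon response elements in the promoters of antiviral genes. Of 42 genes tested, 40 had a log2 fold change below 0, against 46.1% of all genes, and their median was −0.89, against 0.027. None was called and in none were the genotypes separated. The 32 antiviral effectors and regulators had a median of −1.06 (31 below 0), and the 10 sensors and signaling proteins one of −0.33 (9 below 0). The median ran from −1.26 to −0.63 over the alternatives.

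Rsad2, which makes an antiviral nucleotide, was at 12.04, 13.04, 8.75 and 12.59 in wild-type mice and 9.80, 8.11, 8.27, 10.27 and 9.33 in C451A-ERα mice (log2 fold change −2.45, adjusted p = 0.126, limma). Ifit3, one of the proteins that bind viral RNA complexes, was at 11.18, 12.19, 6.73 and 11.26 in WT and 8.80, 6.53, 8.00, 9.12 and 7.89 in C451A (log2 fold change −2.27, adjusted p = 0.219). L67, L50 and L52 were high for both genes, while L72 lay within the C451A-ERα range. The same split was seen in the next genes. Isg15, a ubiquitin-like modifier, was at 13.87, 14.65, 11.67 and 13.85 in WT and 12.80, 11.30, 12.04, 12.72 and 11.89 in C451A (log2 fold change −1.36). Usp18, which removes it from proteins, was at 12.12, 12.69, 10.93 and 12.40 in WT and 11.19, 9.62, 10.37, 11.03 and 10.51 in C451A (log2 fold change −1.49). The transcription factor Irf7, which keeps the response going, was at 13.78, 14.63, 11.86 and 13.83 in WT and 12.80, 11.72, 11.97, 12.89 and 12.25 in C451A (log2 fold change −1.20). Bst2, which tethers budding virus to the cell surface, was at 13.16, 13.50, 11.60 and 13.38 in WT and 12.81, 10.74, 12.16, 11.58 and 11.44 in C451A (log2 fold change −1.16). Averaged over the 42 genes, the deviation from the mean of all 19 arrays was 1.13, 1.92, −0.128 and 1.37 in the wild-type mice and 0.414, −0.337, 0.059, 0.53 and 0.054 in the C451A-ERα mice. Within slides the median difference was below 0 on 3 of 4 slides (lowest −2.33) and 0.634 on the slide of L76 and L72. Without L72, Rsad2 (adjusted p = 0.000422) and Ifit3 (0.00138) passed the test (limma). Removing the 1 wild-type mouse within the C451A-ERα range lowers these p-values by construction. The 13 immune cell markers had a median log2 fold change of 0.05 (6 below 0), whose sign changed under several alternatives, and their mean deviations ran from −0.209 to 0.152 in wild-type and from −0.197 to 0.255 in C451A-ERα mice. Their part in the result was not tested.

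**Figure D3:**
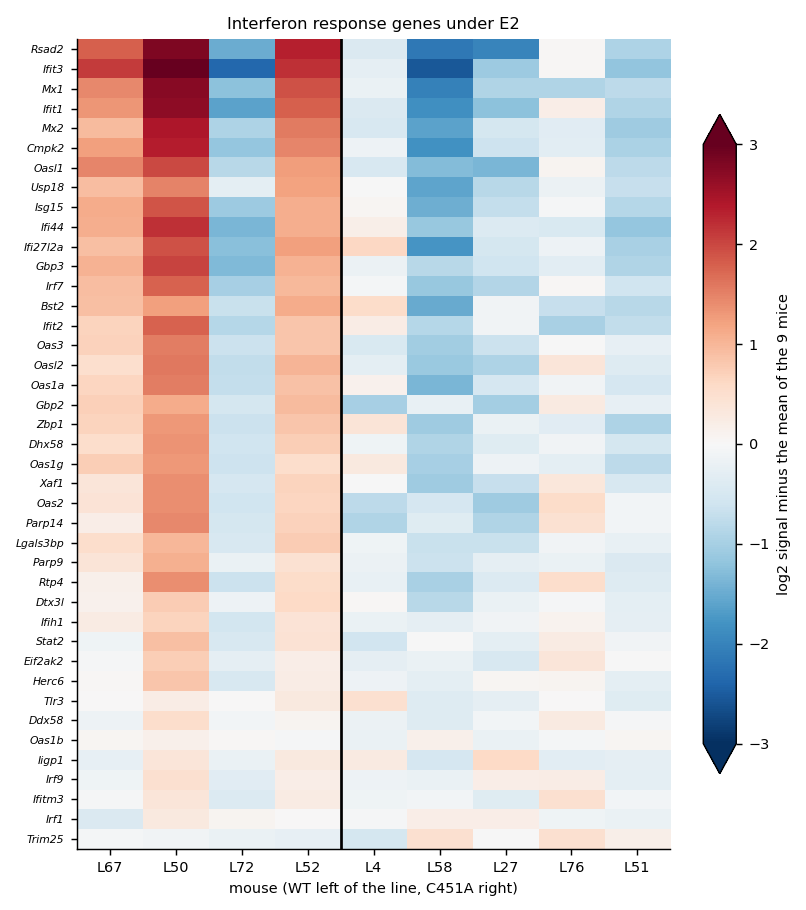
Heat map of 41 interferon response genes (rows, ordered by log2 fold change) in the 9 mice (columns, WT left and C451A right of the line), with the log2 signal minus the mean of the 9 mice as color; colors end at −3 and 3. L67, L50 and L52 of the WT mice are red in the upper rows, and L72 and the C451A mice are blue or pale.

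Many promoters of these genes carry the letters of the element through which interferon acts. Promoter windows (250 bases before to 50 after each annotated start) came from the RefSeq table on GRCm38.p6, which named 12367 of the tested genes. The element was searched on both strands as GAAA, any 2 bases, GAAA, in which matches may overlap. It stood in 3.66% of tested genes with a promoter and in 3.99% of all 27025 genes of the table. Of the 29 interferon response genes with a promoter, 15 (51.7%) held it. Their median log2 fold change was −1.05 (15 of 15 below 0), and that of the 14 genes without a match −0.83 (12 of 14 below 0). The 172 lower and 311 higher genes without overlap and with a promoter held it in 4.65% and 4.18%. The 250 bases before the start are shown for 5 interferon response genes and for Socs1, each read 5′ to 3′ along the gene, with the matches in capitals, since the position of the matches can be seen in them. In Isg15 (chr4:156200819-156201068, minus strand) 3 matches overlap, in Ifit1 (chr19:34640639-34640888, plus strand) and Ifit3 (chr19:34583279-34583528, plus strand) 2 matches stand apart, in Rsad2 (chr12:26456453-26456702, minus strand) there is 1, and in Bst2 (chr8:71537473-71537722, minus strand) and Socs1 (chr16:10785537-10785786, minus strand) 2 overlap. The first base of the first match lies at −78 in Isg15, −104 in Ifit1, −156 in Ifit3, −120 in Rsad2, −130 in Bst2 and −83 in Socs1. A match is a description of the sequence and not a bound site.
Isg15: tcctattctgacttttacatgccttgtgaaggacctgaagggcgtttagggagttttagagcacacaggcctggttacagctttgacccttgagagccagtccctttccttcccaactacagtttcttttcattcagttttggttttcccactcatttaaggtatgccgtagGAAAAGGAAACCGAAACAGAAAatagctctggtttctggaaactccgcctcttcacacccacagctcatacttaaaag
Ifit1: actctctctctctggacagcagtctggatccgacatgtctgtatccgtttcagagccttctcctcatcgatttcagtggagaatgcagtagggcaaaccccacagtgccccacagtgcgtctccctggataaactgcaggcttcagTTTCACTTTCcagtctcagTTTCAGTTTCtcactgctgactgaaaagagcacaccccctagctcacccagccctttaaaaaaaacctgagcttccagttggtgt
Ifit3: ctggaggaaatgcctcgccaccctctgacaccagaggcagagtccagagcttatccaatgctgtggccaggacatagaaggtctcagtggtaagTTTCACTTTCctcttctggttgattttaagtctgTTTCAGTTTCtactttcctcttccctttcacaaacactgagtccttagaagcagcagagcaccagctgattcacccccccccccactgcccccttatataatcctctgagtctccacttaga
Rsad2: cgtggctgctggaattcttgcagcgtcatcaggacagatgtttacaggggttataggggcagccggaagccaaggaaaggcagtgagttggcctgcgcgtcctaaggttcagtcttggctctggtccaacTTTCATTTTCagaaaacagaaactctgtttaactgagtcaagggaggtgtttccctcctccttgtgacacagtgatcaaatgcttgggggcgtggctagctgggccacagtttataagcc
Bst2: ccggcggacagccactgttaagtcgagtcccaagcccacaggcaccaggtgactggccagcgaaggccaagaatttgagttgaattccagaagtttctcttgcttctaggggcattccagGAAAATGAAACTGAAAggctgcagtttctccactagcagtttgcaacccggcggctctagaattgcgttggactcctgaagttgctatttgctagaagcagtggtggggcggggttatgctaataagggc
Socs1: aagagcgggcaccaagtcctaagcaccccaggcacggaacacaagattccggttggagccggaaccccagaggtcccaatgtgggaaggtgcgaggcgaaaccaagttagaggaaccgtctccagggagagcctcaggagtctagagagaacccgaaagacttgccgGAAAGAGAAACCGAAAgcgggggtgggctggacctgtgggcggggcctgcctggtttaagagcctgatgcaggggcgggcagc

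In JAK-STAT signaling, which cytokine, growth hormone and interferon receptors share, 2 of 19 genes were lower without overlap and 0 were higher. Jak2, the kinase bound to the growth hormone, prolactin and several cytokine receptors, was at 11.07, 11.16, 10.18 and 11.07 in wild-type and 10.12, 9.56, 9.90, 9.68 and 9.80 in C451A-ERα LCs. L72 lay just above the highest C451A-ERα mouse and the other wild-type mice were close to each other (log2 fold change −1.06 ± 0.21 SE and adjusted p = 0.106 from limma, and 0.000891 without L72). Its other probe was lower as well. Socs1, an inhibitor that JAK-STAT signaling itself induces, was at 8.93, 8.80, 8.11 and 9.01 in WT and 6.98, 7.34, 7.07, 7.97 and 7.74 in C451A (log2 fold change −1.29 ± 0.27 SE and adjusted p = 0.112, and 0.00389 without L72). The feedback inhibitors Socs2 (10.93, 11.08, 8.77 and 10.77 in WT and 9.74, 8.45, 8.95, 8.58 and 8.83 in C451A) and Cish (11.53, 12.05, 10.62 and 11.53 in WT and 10.60, 11.26, 10.47, 10.12 and 10.58 in C451A) overlapped between the genotypes, with log2 fold changes of −1.47 and −0.83 (adjusted p = 0.141 and 0.13, limma). Stat5a was at a log2 fold change of −0.45, and Jak1 and Stat3 at −0.03 and 0.02. The median of the 19 genes was −0.22 (13 below 0), and it was below 0 on 4 of 4 slides.

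Cytokine and chemokine genes varied widely between mice. Of 17 cytokine ligands tested, 3 were lower without overlap and 13 were below 0 (median −0.94), while the 20 receptors had none without overlap and a median of −0.13 (13 below 0). Il1rn, a natural antagonist of interleukin 1, was at 8.63, 8.24, 6.97 and 7.94 in wild-type and 6.89, 6.92, 6.42, 6.73 and 6.80 in C451A-ERα LCs (log2 fold change −1.20, adjusted p = 0.161, limma). Il6 was at 8.97, 9.94, 8.77 and 9.44 in WT and 8.71, 8.22, 8.22, 8.68 and 7.88 in C451A (log2 fold change −0.94, adjusted p = 0.525). Tslp, a cytokine made by epithelia, was well above background on 1 wild-type array and no C451A-ERα array. The myeloid growth factor gene Csf2 was at 8.45, 9.54, 5.91 and 8.24 in WT and 6.37, 6.21, 5.88, 5.87 and 6.41 in C451A (log2 fold change −1.88), and only L72 came down to the C451A-ERα level.

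Among 28 chemokines and their receptors none was without overlap, 23 were below 0, and the median was −0.53. The neutrophil-attracting chemokine Cxcl5 was at 14.99, 16.09, 9.37 and 15.38 in wild-type and 11.64, 7.82, 9.36, 8.21 and 9.65 in C451A-ERα LCs. L67, L50 and L52 were far above every C451A-ERα mouse, and L72 lay within the C451A-ERα range (log2 fold change −4.62 ± 1.28 SE and adjusted p = 0.13, and 0.00316 without L72, limma). Its relative Cxcl3 was at 9.82, 10.38, 6.10 and 9.62 in WT and 7.12, 5.77, 5.86, 5.42 and 6.17 in C451A (log2 fold change −2.91, adjusted p = 0.113, and 0.000152 without L72). Cxcl1 and Cxcl2 of the same cluster had log2 fold changes of −1.32 and −1.30, with the highest C451A-ERα value in L58 for both. Cxcr4, the receptor of Cxcl12, was at 6.01, 5.93, 6.66 and 6.05 in WT and 7.62, 6.79, 7.78, 6.58 and 6.79 in C451A (log2 fold change 0.95, adjusted p = 0.231), while Cxcl12 itself was at 10.31, 11.07, 8.14 and 11.07 in WT and 9.19, 7.59, 8.39, 7.94 and 8.28 in C451A (log2 fold change −1.87, adjusted p = 0.126).

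Keratins, the intermediate filament proteins of epithelia, were below 0 in all 23 genes tested, with a median log2 fold change of −0.88. Of these, 4 were lower without overlap and 0 higher. Krt4, a keratin of stratified epithelia of the mucosa, was at 11.73, 11.38, 9.43 and 11.19 in wild-type and 8.13, 6.5, 6.41, 7.49 and 6.72 in C451A-ERα LCs (log2 fold change −3.89 ± 0.84 SE and adjusted p = 0.113 from limma, and 0.00775 without L72). Krt78 was at 10.28, 9.98, 10.23 and 10.44 in WT and 9.43, 8.24, 9.46, 8.82 and 9.04 in C451A (log2 fold change −1.24, adjusted p = 0.216), and Krt36 at 7.59, 7.05, 6.96 and 7.21 in WT and 5.98, 5.92, 6.27, 6.43 and 6.17 in C451A (log2 fold change −1.05, adjusted p = 0.106). Krt19, a keratin of LCs, was at 17.36, 17.28, 17.25 and 17.36 in WT and 16.88, 16.87, 17.08, 16.95 and 17.17 in C451A. This difference was small (log2 fold change −0.33, adjusted p = 0.449), and the luminal keratins Krt8 and Krt18 overlapped, with −0.39 and −0.02. Krt6a and Krt16, which epithelia make under stress, had log2 fold changes of −1.72 and −2.12, and Krt15 and Krt79 of −2.40 and −2.29. In these 4 keratins L67, L50 and L52 were above every C451A-ERα mouse and L72 was not. The basal keratins Krt14 and Krt5 were at −0.74 and −0.52 (adjusted p = 0.517 and 0.801, limma). The list median was below 0 on 4 of 4 slides (−1.30 to −0.304) and ran from −1.05 to −0.72 over the alternatives.

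Proteins of cornified and squamous epithelium showed the same direction, with 26 of 29 genes below 0, a median of −0.56, 4 genes lower without overlap (Sprr1b, Nccrp1, Anxa8 and Scel) and 0 higher. Nccrp1 is the called member. Anxa8, a calcium-dependent lipid-binding protein, was at 14.20, 13.72, 12.75 and 13.07 in wild-type and 12.20, 12.66, 11.72, 12.53 and 12.47 in C451A-ERα LCs (log2 fold change −1.12, adjusted p = 0.225, limma). Scel, which joins the cornified envelope, was above background on 3 wild-type arrays and no C451A-ERα array, and was at least 1.63-fold lower. Ly6d and S100a9 were among the 3 genes above 0, at 1.27 and 0.37. The list median was below 0 on 4 of 4 slides (−1.07 to −0.042). Markers of other cell types moved with these lists. All 7 epidermis markers were below 0 (median −0.42), and their mean deviation was 0.438, 0.655, 0.555 and 0.193 in wild-type and −0.232, 0.036, −0.263, −0.476 and −0.276 in C451A-ERα mice. Of their defining members, Krt77 was above background on 3 wild-type and 1 C451A-ERα array, and Krt1 and Krt10 were at −0.42 and −0.22. Of 14 basal markers 9 were below 0 (median −0.23), with mean deviations from 0.084 to 0.383 in wild-type and from −0.251 to 0.405 in C451A-ERα mice. Their part in the keratin result was not tested. Krt77, Krt1 and Krt10 count in both the keratin and the epidermis list, and Krt5, Krt14 and Krt17 in both the keratin and the basal list.

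**Figure D4:**
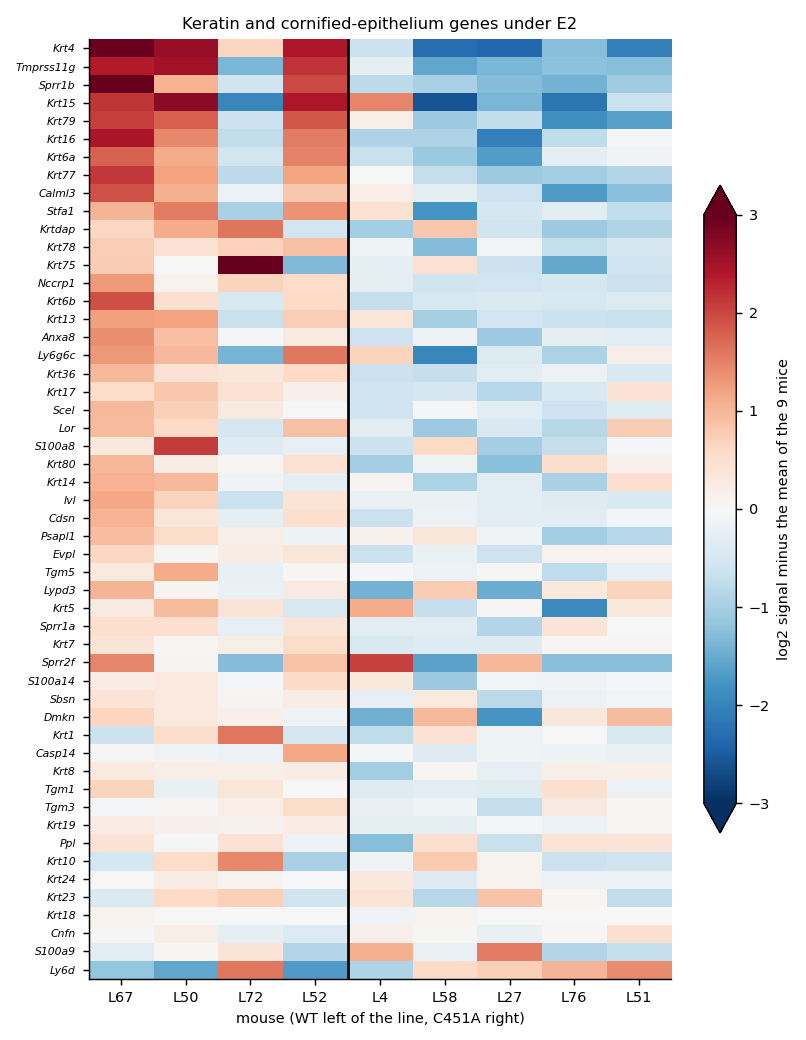
Heat map of the 23 keratins and 29 genes of cornified and squamous epithelium (rows, ordered by log2 fold change) in the 9 mice (columns, WT left and C451A right of the line), with the log2 signal minus the mean of the 9 mice as color; colors end at −3 and 3. In the upper rows L67, L50 and L52 are red, L72 is mixed and the C451A mice are blue, apart from single red cells in L4.

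Adhesion, matrix and protease genes had smaller medians below 0, and within slides these were below 0 on 3 of 4 slides (highest 0.112, 0.062 and 0.064). Of 31 integrins, cadherins and desmosomal genes, 25 were below 0 (median −0.25) and 2 were lower without overlap. Both are desmosomal cadherins. Dsc3 was at 7.87, 8.61, 8.30 and 7.81 in wild-type and 7.47, 7.77, 7.15, 7.08 and 7.46 in C451A-ERα LCs (log2 fold change −0.76, adjusted p = 0.126, limma), and Dsc2 at 7.23, 7.26, 6.85 and 7.13 in WT and 6.41, 6.27, 6.79, 6.43 and 6.46 in C451A (log2 fold change −0.64, adjusted p = 0.144). In 54 genes of the extracellular matrix and basement membrane the median was −0.23 (41 below 0), with Ecm1 alone without overlap, at 14.40, 13.75, 13.72 and 14.06 in WT and 13.21, 12.91, 12.82, 13.38 and 13.42 in C451A (log2 fold change −0.83, adjusted p = 0.143). Fibrinogen chains stood at the other end. Fgb was at 11.20, 11.99, 15.69 and 12.26 in WT and 14.19, 16.05, 15.50, 16.28 and 16.51 in C451A, with L72 within the C451A-ERα range and L67, L50 and L52 below every C451A-ERα mouse (log2 fold change 2.92 ± 1.23 SE and adjusted p = 0.297), and Fgg had a log2 fold change of 2.52. Of 52 proteases and inhibitors, 33 were below 0 (median −0.26), and only the membrane-anchored collagenase Mmp14 did not overlap, at 9.67, 9.45, 9.32 and 9.52 in WT and 9.07, 8.96, 8.75, 9.16 and 8.96 in C451A (log2 fold change −0.51, adjusted p = 0.148). The secreted antiprotease Slpi had the lowest log2 fold change of the list, −3.02, and the transmembrane protease Tmprss4 the highest, 2.12.

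Of 20 genes of epithelial-mesenchymal transition, 15 were below 0 (median −0.21). The 2 without overlap have opposite known roles, since Snai1 represses epithelial genes and Grhl3 activates them. Grhl3 was at 8.61, 7.38, 7.05 and 7.82 in wild-type and 6.96, 6.16, 6.67, 6.25 and 6.55 in C451A-ERα LCs (log2 fold change −1.20, adjusted p = 0.123, and 0.00969 without L72, limma). Snai2 and Twist1 had log2 fold changes of 0.20 and 0.46, Vim of −0.26 and Cdh1 of −0.25. Fn1, a matrix protein of the same list, was at 13.90, 14.14, 11.09 and 14.05 in WT and 12.47, 9.93, 11.23, 11.24 and 11.23 in C451A, where L72 lay in the C451A-ERα range (adjusted p = 0.126, and 0.00136 without L72). In the 26 tight and gap junction genes none was without overlap, and Gja1, the main gap junction protein of basal cells, was at 9.49, 9.72, 7.74 and 9.92 in WT and 9.16, 7.19, 7.6, 7.55 and 7.73 in C451A.

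**Figure D5:**
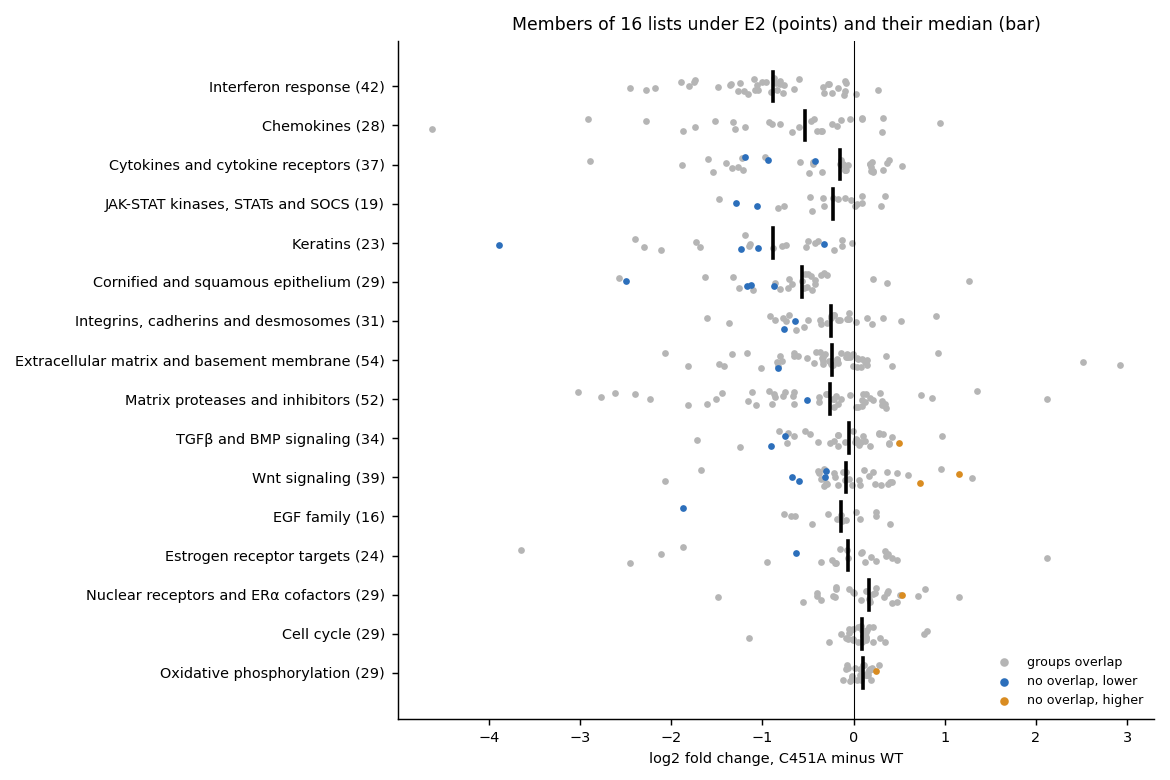
Log2 fold change (C451A minus WT, x axis) of each tested member (points) of 16 gene lists (rows, with the number of members) and the list median (black bar); blue and orange points are members whose genotypes did not overlap. Interferon, keratin, cornified and chemokine medians lie between −0.89 and −0.53, and the other medians between −0.26 and 0.17.

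Ligands of the EGF receptor family link hormone-sensing cells to their neighbors. Epgn (epigen) was the 1 gene of 16 without overlap, at 10.47, 11.12, 9.87 and 10.79 in wild-type and 8.51, 8.55, 7.56, 9.36 and 9.50 in C451A-ERα LCs (log2 fold change −1.87 ± 0.41 SE and adjusted p = 0.113 from limma, and 0.0101 without L72). Areg, the amphiregulin that E2 induces during ductal growth, was at 13.38, 13.61, 14.08 and 13.42 in WT and 13.85, 13.87, 13.43, 14.04 and 14.14 in C451A, and the genotypes overlapped (log2 fold change 0.24, adjusted p = 0.832). The ligands Ereg and Hbegf were at −0.69 and −0.64, and the receptor Egfr at −0.77 (adjusted p = 0.119). The list median was −0.14 and changed sign without both L4 and L27.

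Other growth factor pathways had list medians between −0.19 (IGF axis) and 0.12 (FGF family), and each held members without overlap. In the TGFβ and BMP list (34 genes, median −0.05) the ligands Tgfb2 and Bmp8a were lower and the receptor Acvr1b higher without overlap. Tgfb2 was at 10.93, 11.26, 10.07 and 10.38 in wild-type and 9.68, 10.07, 9.36, 9.72 and 9.94 in C451A-ERα LCs (log2 fold change −0.91, adjusted p = 0.146, limma), and Acvr1b, an activin receptor, at 8.97, 8.95, 9.45 and 9.0 in WT and 9.54, 9.64, 9.86, 9.46 and 9.49 in C451A (log2 fold change 0.50, adjusted p = 0.123). The 13 ligands of this list had a median of −0.53 with 9 below 0. Among them the activin subunits differed in sign, with Inhba at −1.71 and Inhbb at 0.97, and in both the wild-type and C451A-ERα mice overlapped through L72.

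In Wnt signaling 4 of 39 genes were lower and 2 higher without overlap, against 1.42% and 2.09% of all genes. The median was −0.08, with a change of sign without L58 and without L72. Ror2, a receptor for noncanonical Wnt ligands, was at 7.92, 8.14, 9.38 and 8.80 in wild-type and 9.66, 9.46, 10.13, 9.83 and 9.48 in C451A-ERα LCs (log2 fold change 1.15, adjusted p = 0.126, and 0.0116 without L72, limma). Rnf43, which removes Frizzled receptors from the surface, was at 8.36, 8.67, 9.08 and 8.45 in WT and 9.65, 9.12, 9.84, 9.11 and 9.12 in C451A (log2 fold change 0.73, adjusted p = 0.282). Lower without overlap were the ligand Wnt7b (−0.67), the receptors Fzd5 (−0.60) and Lrp5 (−0.31), and the secreted inhibitor Notum (−0.31). Wnt4, the ligand that acts downstream of progesterone, was at 10.85, 9.76, 12.25 and 10.71 in WT and 11.51, 11.96, 12.18, 11.90 and 11.71 in C451A. The C451A-ERα values were close together, L72 lay above all of them and the other wild-type mice below (log2 fold change 0.96, adjusted p = 0.237, and 0.00856 without L72). Igf1r, the receptor of insulin-like growth factor 1, was at 8.65, 8.95, 8.58 and 8.57 in WT and 8.10, 8.38, 8.15, 8.20 and 8.28 in C451A (log2 fold change −0.47, adjusted p = 0.145), Fgfr3 at 11.24, 10.82, 10.82 and 11.02 in WT and 10.77, 10.52, 10.76, 10.02 and 10.81 in C451A (log2 fold change −0.40, adjusted p = 0.391) and Notch4 at 6.60, 6.54, 6.88 and 6.71 in WT and 7.45, 6.95, 7.77, 6.96 and 6.91 in C451A (log2 fold change 0.53, adjusted p = 0.343). These 3 receptors were separated by narrow gaps.

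Known estrogen receptor targets had a median close to that of all genes. Of 24 tested, 13 were below 0 (median −0.07, with a change of sign under 3 alternatives), and 1 was without overlap. That gene, Ctsd, encodes the lysosomal protease cathepsin D and was at 15.25, 14.81, 14.66 and 14.78 in wild-type and 14.20, 14.36, 14.20, 14.24 and 14.21 in C451A-ERα LCs. The C451A-ERα mice were close to each other (log2 fold change −0.63 ± 0.16 SE and adjusted p = 0.123 from limma, and 0.0277 without L72). Greb1, an estrogen-induced cofactor of ERα, was at 12.68, 12.39, 9.52 and 12.75 in WT and 10.89, 5.38, 9.03, 7.04 and 8.58 in C451A (adjusted p = 0.126, and 0.0164 without L72), and L72 and L4 brought the genotypes to overlap. Ccn5, a secreted matricellular protein that E2 induces, was at 11.65, 11.36, 8.69 and 11.55 in WT and 10.06, 7.74, 8.62, 7.69 and 7.73 in C451A (log2 fold change −2.45, adjusted p = 0.123). In contrast, Xbp1, Myc and Ccnd1 had log2 fold changes of 0.09, 0.08 and 0.42. Over the 24 targets the log2 fold change ran from −3.65 to 2.12. With the authors' values, 1 target was called lower and 1 higher. The full estrogen response element (GGTCA, any 3 bases, TGACC, both strands) is too rare in these windows for a comparison, since 4 of the 12367 tested genes held one (0.0323%). One arm of it (GGTCA, both strands), a search added after values were seen, stood in 8 of the 18 targets with a promoter (44.4%) and in 42.8% of tested genes.

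The means of Esr1 and of most ERα cofactors were higher in C451A-ERα LCs, while nuclear receptor genes were split (12 tested, 6 below 0, median −0.06). Esr1 was at 10.76, 10.31, 10.89 and 10.70 in wild-type and 10.69, 11.60, 11.09, 11.37 and 11.11 in C451A-ERα LCs (log2 fold change 0.51, adjusted p = 0.553, limma), and its 6 other probes had the same sign. Foxa1, the pioneer factor that opens chromatin for ERα, was at 12.65, 12.37, 12.65 and 12.74 in WT and 13.23, 12.77, 13.83, 12.88 and 12.97 in C451A without overlap (log2 fold change 0.54, adjusted p = 0.379). Of the 11 cofactors tested, 1 was below 0, and their median was 0.34. Gata3 was at 13.03, 13.27, 13.97 and 13.30 in WT and 14.53, 13.75, 14.97, 13.50 and 13.75 in C451A (log2 fold change 0.71) and Cited1, a coactivator of hormone-sensing cells, at 14.23, 14.49, 16.08 and 14.99 in WT and 15.58, 16.12, 16.38, 16.19 and 16.25 in C451A (log2 fold change 1.15, adjusted p = 0.288). For Cited1 only L72 reached the C451A-ERα range. The 6 genes of palmitoylation and membrane anchoring had a median of −0.03 and none was separated, among them the palmitoyltransferases Zdhhc7 (−0.05) and Zdhhc21 (−0.01). Progesterone receptor targets (15 tested, 5 below 0, median 0.24, below 0 with array weights) had no member without overlap, and Tnfsf11, their best known ligand, was not well above background on any wild-type array.

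Lipid mediator genes held the leading call. In that list of 23 genes (median −0.09) Alox15 fell, and Alox12e, an epidermal lipoxygenase, was lower without overlap at 8.88, 8.81, 8.53 and 7.70 in wild-type and 7.53, 7.46, 7.69, 6.81 and 5.96 in C451A-ERα LCs (log2 fold change −1.39, adjusted p = 0.21, limma). Alox12, the platelet-type enzyme, was at 8.28, 8.66, 6.60 and 8.38 in WT and 7.10, 5.97, 6.70, 6.14 and 6.13 in C451A and overlapped through L72 (log2 fold change −1.57, adjusted p = 0.113). The epidermal enzymes Alox12b and Aloxe3 were at −0.10 and −0.42, Alox8 at 0.31, and the inducible cyclooxygenase Ptgs2 at −1.93. The 3 lipoxygenases Alox15, Alox12 and Alox12e lie in 1 cluster on chromosome 11 (probes at chr11:70159115-70159339, chr11:70055715-70055774 and chr11:70129157-70129216 of mm9).

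Metabolic and cell cycle lists had medians near 0. Oxidative phosphorylation genes had a median of 0.1 (8 of 29 below 0) and lists of cholesterol, fatty acid and milk genes had medians of 0.13, 0.05 and 0.14, and the signs of all 4 changed under some alternatives. Sc5d, an enzyme late in cholesterol synthesis, was the separated member with the largest difference, at 10.24, 10.07, 10.25 and 9.95 in wild-type and 10.63, 10.69, 10.81, 10.53 and 10.53 in C451A-ERα LCs (log2 fold change 0.51, adjusted p = 0.117, limma). The 29 cell cycle genes had a median of 0.09 with none separated. Their within-slide medians ran from −1.0 to 1.56, and the median was −0.66 without both L4 and L27. Vegfa, the angiogenic factor of the hypoxia list, was at 11.65, 11.72, 11.65 and 11.57 in WT and 10.98, 11.13, 9.69, 11.41 and 10.75 in C451A, with the wild-type mice close to each other (log2 fold change −0.85, adjusted p = 0.296). Ern1, a sensor of the unfolded protein response, was at 10.62, 10.61, 10.31 and 10.86 in WT and 9.96, 9.53, 10.07, 10.07 and 10.05 in C451A (log2 fold change −0.67, adjusted p = 0.117, and 0.0114 without L72), and the flow-induced factor Klf2 at 11.14, 10.45, 10.45 and 10.78 in WT and 9.98, 9.90, 9.61, 10.01 and 9.41 in C451A (log2 fold change −0.92, adjusted p = 0.147). The death receptor Fas was at 8.68, 9.89, 8.48 and 8.81 in WT and 7.74, 7.97, 8.05, 8.10 and 7.68 in C451A (log2 fold change −1.05, adjusted p = 0.113, and 0.00554 without L72), though only 1 of its 2 other probes was lower.

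Milk genes overlapped between the genotypes in all 19 cases. Csn2, a casein, was at 5.64, 5.17, 5.49 and 5.91 in wild-type and 9.52, 6.48, 6.73, 5.89 and 7.69 in C451A-ERα LCs (log2 fold change 1.71, adjusted p = 0.583, limma). L4 and L51 were the highest, and L76 lay within the wild-type range.

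Transporters and redox enzymes held some of the larger differences without being separated. In the hypoxia and glycolysis list (28 genes, 20 below 0, median −0.2) the glucose transporter Slc2a3 was at 10.62, 8.72, 5.23 and 10.74 in WT and 6.60, 4.62, 6.07, 5.13 and 5.03 in C451A (log2 fold change −3.34, adjusted p = 0.165, limma), while Slc2a1, the main glucose transporter of mammary cells, was at 0.42. The lactate exporter Slc16a3 was at −1.72. In the glutathione and redox list (26 genes, 17 below 0, median −0.07) the secreted glutathione peroxidase Gpx3 was at 16.24, 15.79, 13.59 and 16.38 in WT and 15.08, 10.61, 14.45, 11.09 and 12.97 in C451A (log2 fold change −2.66, adjusted p = 0.208), and Gsto1, a glutathione transferase, at 15.85, 15.18, 13.25 and 15.53 in WT and 13.88, 13.10, 13.44, 13.21 and 13.62 in C451A (log2 fold change −1.51, adjusted p = 0.123, and 0.000228 without L72).

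Guidance cues, which steer cells and vessels, had 20 of 33 genes below 0 (median −0.24) and none separated. Efnb2, a membrane-bound ephrin, was at 11.79, 11.48, 9.67 and 11.62 in WT and 9.96, 9.45, 8.81, 10.13 and 10.01 in C451A (log2 fold change −1.47, adjusted p = 0.123, and 0.000384 without L72, limma). The netrin receptor Unc5b was at −1.35, the receptor and ligand Robo2 and Slit2 at −1.34 and −1.20, and the semaphorin coreceptor Nrp1 at 1.20. In antigen presentation (18 genes, 8 below 0, median 0.04, with changes of sign) the class I genes B2m and H2-K1 were at −0.35 and −0.25 and the class II genes H2-Aa and H2-Eb1 at 0.60 and 0.63. Among 28 immediate early and dissociation genes, which cells can induce while tissue is digested, 15 were below 0 (median −0.01), with Fos at 0.48, Egr1 at 0.52 and Ier3 at −1.14.

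Markers of other cells gave the following values. Endothelial markers were at or above 0 in 8 of 8 genes (median 0.2), erythrocyte markers had a median of 0.61 with the nearly identical hemoglobin genes Hba-a1 and Hba-a2 at 1.31 and 1.35, and fibroblast markers one of −0.13. Skeletal muscle and nerve markers had a mean deviation of −1.28 in L51 and of 0.111 to 1.35 in the other 8 mice. Among hormone-sensing markers (11 tested, median 0) Foxa1 alone was separated, and the 10 luminal progenitor markers had a median of −0.27. None of these marker genes was called.

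A knock-in allele can bring flanking DNA of the stem cells it was made in, and genes near Esr1 on chromosome 10 were therefore counted separately. Within 20 Mb of the Esr1 probe 127 genes were tested, of which 1 was lower (0.787%) and 2 were higher (1.57%) without overlap, against 1.41% and 2.09% of the 20566 genes with a position. None of the 127 was called and their median log2 fold change was −0.031. The 3 separated genes were Mtrf1l, a mitochondrial release factor (0.45, 0.81 Mb from Esr1), an unnamed noncoding transcript (−0.66, 0.76 Mb) and Arfgef3 (0.62, 12.96 Mb).

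Single mice shaped which genes were separated. L72 was the wild-type mouse nearest to the C451A-ERα range for 173 of the 293 lower and 267 of the 432 higher genes, while L67 was nearest for 26 and 52, L50 for 51 and 47, and L52 for 43 and 66. Of the separated genes with a further probe, 237 of 289 had every other probe in the same direction. Dim probes were few, since 17 of the lower genes were not well above background on any C451A-ERα array and 28 of the higher genes on any wild-type array.

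Pairs of mice on 1 slide were compared as a check. For each gene without overlap the 4 within-slide differences have the same sign by construction, so that only their sizes carry information. The difference of Alox15 was −1.80, −2.20, −2.14 and −1.85 on the slides of L67, L50, L72 and L52, the most even of the 4 genes that fell. That of Nccrp1 was −1.56, −0.70, −1.18 and −1.18, that of Acod1 −0.47, −1.57, −0.79 and −1.59, and that of A_66_P101661 −1.79, −2.73, −0.52 and −2.14. Zfp182 differed by 0.79, 0.69, 0.58 and 0.74 and Zfp202 by 1.51, 1.15, 0.30 and 0.79. The slide of L72 gave the smallest difference for A_66_P101661, Zfp182 and Zfp202. With slide as a fixed block no gene was called, the adjusted p of Alox15 was 0.0828 (limma), and 2349 genes had an unadjusted p under 0.05. With slide as a random block Alox15 alone was called (adjusted p = 0.0174), and over the 23 alternatives its adjusted p ran from 2.12e-05 to 0.106. Among genes whose genotypes overlapped, some kept their direction on the slide of L72 and others did not. Cxcl5 was lower on all 4 slides (−3.35, −8.27, −1.16 and −5.73) and Fgb higher on all 4 (2.99, 4.05, 0.59 and 4.25), with the smallest difference on the slide of L72 in both. Rsad2 (−2.24, −4.93, 1.52 and −3.26) and Ifit3 (−2.38, −5.66, 2.39 and −3.38) were lower on 3 slides and higher on that of L72.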

How the data were processed

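RNA of sorted LCs was hybridised to 1-color Agilent arrays (56605 probes on 59305 spots), 1 array for each mouse. The deposited scanner files hold spot intensity, which the authors extracted with Feature Extraction 10.10.1.1. The deposited value table holds log2 signals that the authors filtered, corrected for washing bath and labeling series and normalized by quantiles (30207 probes, median 7.77). It was used as an alternative, since the labels used here do not give those batches.

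From the scanner files the log2 of the median signal was normalized by quantiles over 19 arrays. Control spots were left out, a probe was kept where 4 or more arrays had it well above background, and 1 probe stood for each gene, the one with the highest mean signal. Probes were named through RefSeq accessions (33889), symbols (9462) or synonyms (489), and otherwise kept the name of the file (12765). The fit in limma 3.58.1 (R 4.3.3) held the 4 groups of the series, including the mice given E2 and progesterone, which share the estimate of the spread (15 residual degrees of freedom), and p-values were adjusted by the Benjamini-Hochberg method. The script was tested on simulated data. Nothing in the labels says that mice were processed as pairs beyond their slide.

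Members and lists were chosen with earlier results of these data known. The named genes are every called gene, the 15 lowest and 15 highest genes without overlap, past 1.5-fold and past both thresholds in the authors' table, Esr1 with the genes the study names under E2 or measured by qRT-PCR, and of each list up to 4 members without overlap, or else the 2 with the largest difference. Other members were named after their values were seen, to describe their list. Promoter sequences are those of RefSeq on GRCm38.p6, and probe positions are those of the array design on mm9. A few genes of the lists are not reported here by name. Alternatives covered background correction, scaling, the filter on dim probes, the probe rule, slide as a block, array weights and leaving out each mouse.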

Additional observations from a re-analysis of the deposited data

Results flagged for a closer look

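For named genes the highest or lowest mouse of a genotype was set against the rest of that genotype (Dixon's test). Chance alone would mark about 1 of 20 groups that are independent and not chosen by their values. Many named genes were chosen from these same values, and the same mice enter every gene, so this rate is only a guide. The test marked 28 of 262 groups, 14 of them for L72. L72 was low for Klk6 (6.36, the other wild-type mice 8.73 to 9.10), LOC433198 (5.16, others 6.57 to 6.74), Greb1 (9.52, others 12.39 to 12.75), Fn1 (11.09, others 13.90 to 14.14), Jak2 (10.18, others 11.07 to 11.16) and Lamb1 (9.82, others 12.22 to 12.41). It was also low for Tgfb3 (12.59, others 13.41 to 13.57), Cxcl5 (9.37, others 14.99 to 16.09), Atp1b1 (11, others 12.35 to 12.56) and Efnb2 (9.67, others 11.48 to 11.79). It was high for Gm13373 (5.47, others 4.49 to 4.56), Tmed8 (6.79, others 6.5 to 6.53), Acvr1b (9.45, others 8.95 to 9.0) and H2-DMb1 (10.10, others 9.16 to 9.26). Wild-type mouse L52 was low for Bcl2 (8.32, others 8.78 to 8.87).

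Among C451A-ERα mice L4 was marked for Lepr (10.32, others 8.86 to 8.94), Pcsk1 (6.89, others 4.91 to 5.08), H2-DMb1 (9.77, others 10.10 to 10.19) and Gja1 (9.16, others 7.19 to 7.73), and L27 for Gm13373 (6.69, others 5.54 to 5.83), Tmed8 (7.78, others 7.2 to 7.31), Tex15 (6.38, others 5.88 to 5.99) and Bmp8a (6.08, others 6.93 to 7.18). L58 was marked for Ctsd (14.36, others 14.20 to 14.24), Ern1 (9.53, others 9.96 to 10.07) and Krtdap (7.80, others 5.91 to 6.39), L51 for B9d1os (6.25, others 5.64 to 5.80) and L76 for Cldn5 (8.38, others 7.46 to 7.70).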

How the results depend on the processing

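The number of called genes was 6 (4 lower and 2 higher). It was 0 with processed signals and with probes above background on all arrays (limma, 2582 and 2241 genes at an unadjusted p under 0.05), 0 with slide as a fixed block (2349), and 1 (1 lower, 0 higher) with normexp correction, without a filter on dim probes, with slide as a random block, with the mean of probes or with trend and robust options. It was 7 (7 and 0) with 75th percentile scaling, 2 (2 and 0) with the 9 E2 arrays only, 133 (87 and 46) in the authors' table, 5 (4 and 1) without both L4 and L27, an alternative added after seeing the data, and 2253 (1292 and 961) with array weights. Leaving out 1 mouse gave 0 to 1044 calls (0 to 641 lower, 0 to 403 higher), the highest without L72. Genes without overlap numbered 342 to 1534 (lower) and 499 to 2147 (higher) with 1 mouse fewer, and 2437 and 2551 without L4 and L27. Fewer mice let more genes separate by construction, but the counts also differed with the mouse left out. The lower count was 1534 without L72, and 356, 377 and 371 without L67, L50 and L52. Pairing by replicate number was not done, since the numbers follow accession order. The paired analysis took slide as the block. Over 3002 values of 132 named genes, 2707 kept direction and side of the threshold. Since 126 of these genes were not called, most of the 2707 are uncalled genes that stayed uncalled. In 187 values an uncalled gene became called, in 90 a call was lost, and in 18 the direction turned. Each of the 6 called genes kept its call in 4 (Zfp202) to 17 (Alox15) of the 23 alternatives. Direction turned for Bcl2 (−0.153 with array weights, −0.026 without L4, −0.058 without L27, −0.081 without L52, −0.185 without L4 and L27, and −0.081 to 0.144 over the mice left out), Tnfsf11 (0.075 with processed signals, 0.026 with normexp, 0.091 in the authors' table, 0.021 with slide as a random block, 0.148 with the mean of probes, 0.079 without L58, 0.042 without L76, 0.071 without L51, 0.130 without L52, and −0.192 to 0.130 over the mice left out), Lepr (0.653) and Bmp1 (−0.003) with the mean of probes, Cyp1b1 (−0.307 without L4 and L27) and Acta1 (0.150 without L51, and −1.057 to 0.150 over the mice left out). The cause was not tested. Genes not well above background have only a bound.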

Other observations

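The following groups were looked at after their values had been seen and are given as values. Genes of the circadian clock were mostly higher in C451A-ERα LCs, with 4 of 17 below 0 and a median log2 fold change of 0.38. Dbp, an output factor of the clock, was at 6.94, 6.92, 8.17 and 7.29 in wild-type mice and 8.5, 9.01, 8.94, 8.31 and 8.86 in C451A-ERα mice, the 1 member without overlap (log2 fold change 1.39, adjusted p = 0.126 from limma). Its relative Tef was at 1.22 (adjusted p = 0.113, and 0.0452 in the authors' value table, limma), the repressor Nr1d1 at 0.99, and Per1 and Cry2 at 0.78 and 0.77. The time of day at which tissue was taken is not given in the sources used here. Of 12 genes of serine and one-carbon metabolism 2 were below 0 (median 0.26), and Psat1, an enzyme of serine synthesis, was higher without overlap (0.78, adjusted p = 0.146 from limma). Phgdh of the same list overlapped, with a log2 fold change of 0.86 (adjusted p = 0.117, and 0.0474 in the authors' value table, limma).

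Around Morrbid, a long noncoding RNA on chromosome 2, 4 of 11 features within 500 kb, Morrbid included, were lower without overlap. Morrbid itself (probe at chr2:128197842-128197901 of mm9) was at 12.08, 11.92, 11.15 and 12.07 in wild-type and 11.04, 9.41, 10.65, 10.48 and 10.30 in C451A-ERα LCs (log2 fold change −1.43, adjusted p = 0.143, limma). The 3 probes for long noncoding transcripts beside it were at −1.68, −1.48 and −1.19 (adjusted p = 0.138, 0.387 and 0.358, limma). For the last 2 of them L4 and L27 lay far below the other C451A-ERα mice. The probe at −1.48 was at 8.50 and 8.30 in L4 and L27, and at 10.55, 10.53 and 10.86 in L58, L76 and L51. Bcl2l11, the neighboring gene of a protein that promotes cell death, overlapped (−0.26).

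The AP-1 element (TGACTCA or TGAGTCA, both strands) stood in 11.6% of the promoters of the lower genes without overlap (20 of 172), 3.54% of those of the higher genes (11 of 311), and 4.95% of all tested genes with a promoter. By list it stood in 9 of 23 promoters of cornified and squamous epithelium (39.1%), 3 of 20 of chemokines (15%), 4 of 29 of the interferon response (13.8%), 1 of 14 of keratins (7.14%) and 0 of 18 of estrogen receptor targets.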
